A study of Mus musculus with 12 samples.

Results

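Testes in which lncRNA5251 had been knocked down were compared directly with testes in which it had been overexpressed. The comparison took 6 of the 12 libraries, 3 per group, and tested 16296 of the 20718 genes in the count table. The knockdown group, F0_5251KD (KD), received lentivirus carrying a mixture of shRNAs against lncRNA5251 in the LV3 backbone. The overexpression group, F0_5251OV (OV), received the full-length lncRNA5251 in the LV5 backbone. The remaining 6 libraries were the controls of those backbones, F0_3NC for LV3 and F0_5NC, the LV5 vector itself. All groups were mouse testis of the strain labelled IRC (the methods write ICR), injected into the testis at 4 weeks of age. The males were kept for 5 weeks and then mated, and the testes were collected some days after that. Nothing in the labels ties the replicates of a group to different animals, and the p-values describe only the variation seen among the libraries at hand. Which testicular cells took up the virus was not stated.

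KD and OV differ in treatment and also in backbone, and anything that followed the backbone, such as the virus preparation or the day of handling, cannot be told apart from lncRNA5251 in this comparison. F0_3NC against F0_5NC carries the same pair of backbones without the change in lncRNA5251 and shares no library with KD against OV. Its values are therefore given beside those of the main comparison.

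The mouse testis consists mostly of germ cells, from spermatogonia through meiotic spermatocytes to round and elongated spermatids, which are held by Sertoli cells inside tubules. Leydig cells, which make testosterone, lie between the tubules with vessels, macrophages and smooth muscle. Immediate early genes are genes that cells switch on within minutes of a stimulus, without new protein synthesis, through factors already present such as CREB and the serum response factor. Many encode transcription factors (the Fos and Jun proteins that form AP-1, the Egr zinc fingers, the Nr4a orphan nuclear receptors), and others encode proteins that destroy mRNA or switch off MAP kinases and so end the response.

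The shRNA sequences are shown because they define what the knockdown targets. Each was 21 bases long and matched the sense strand of exactly 1 of 141767 mouse transcripts, that of Purb, a single-stranded DNA and RNA binding protein. All lay in the 3′ untranslated part of its single exon on the minus strand of chromosome 11 (GRCm38), at chr11:6468416-6468436 for the first, chr11:6467969-6467989 for the second and chr11:6468248-6468268 for the third.
shRNA 1: gctgggacttaatgtccttct
shRNA 2: gcatgggcaattcaaacaaat
shRNA 3: gcttattatgcatcgtaaacc
Purb itself stood at 79.6, 72.8 and 72.2 CPM (estimated counts scaled to a common library total) in the KD libraries and at 80.2, 74.9 and 70.2 CPM in the OV libraries. The groups overlapped, and the log2 fold change (KD over OV) was −0.0043 ± 0.09 (standard error) with an adjusted p of 0.996 in edgeR's quasi-likelihood test. Against its own control, Purb differed by −0.11 in KD and by 0.04 in OV. lncRNA5251 had no values under its own name here, so how far either treatment changed it could not be checked. The gene-level count of Purb does not stand in for it.

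Library totals ran from 15431383 to 15997022 estimated counts in the 6 compared libraries. Marker genes placed the libraries in testis: protamine Prm2, carried by elongated spermatids, stood at 4977 to 6024 CPM. A few libraries stood apart in tissue other than testis. The summed level of an epididymal list (Crisp1, Adam7, Spink8, Rnase9 and others, 5 of 13 tested) was 90.5, 67.3 and 5.82 CPM in the OV libraries against 2.48, 5.25 and 3.32 CPM in the KD libraries. In the controls it was 19.2 to 128 CPM in F0_5NC and 5.61 to 12 CPM in F0_3NC. Epididymal transcripts were thus higher in the LV5 control than in the LV3 control as well. The backbones did not separate fully, since OV library 3 (LV5) lay within the F0_3NC range. KD library 1 held more adipocyte markers (58.1 CPM against 26.4 and 26.9 CPM in the other KD libraries and 19.6 to 23.3 CPM in OV). Red cell transcripts were also higher in KD (68.9 to 107 CPM) than in OV (37.2 to 46.5 CPM).

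**Figure D1:**
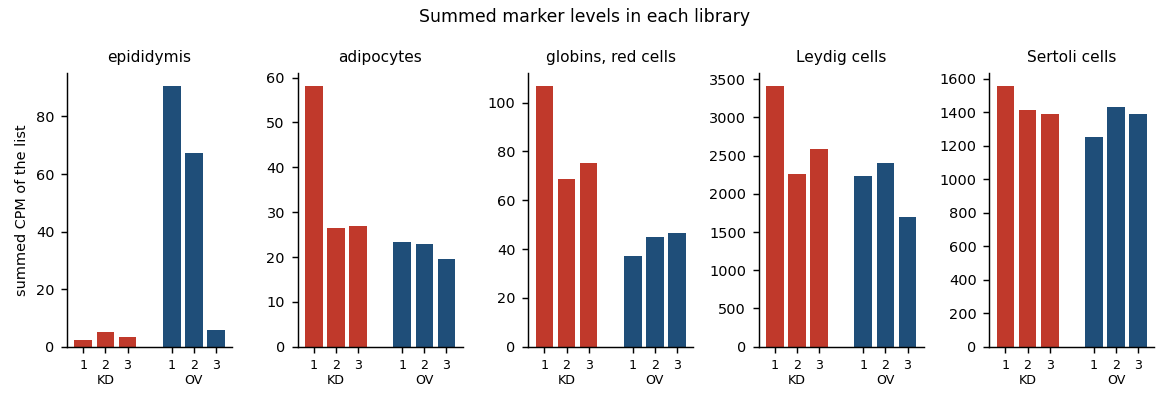
Summed CPM of 5 marker lists in each library of the knockdown (KD) and overexpression (OV) testes, 1 bar per library. Epididymal transcripts were high in OV libraries 1 and 2 at 90.5 and 67.3 CPM, adipocyte transcripts in KD library 1 at 58.1 CPM, and Sertoli transcripts lay between 1253 and 1555 CPM in all 6.

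Knockdown testes had higher levels of a small set of genes than overexpression testes. Of the 16296 genes, 48 passed an adjusted p of 0.05 (0.295%), 47 of them higher in KD (0.288%) and 1, Gm40498, lower. In all 48 the 3 KD values and the 3 OV values did not overlap, which was true of 13.1% of all genes tested. The median log2 fold change over all genes was −0.0043, 93.0% of genes lay within 0.5 of 0 on the log2 scale, and 979 genes had an unadjusted p under 0.05 where 815 would be counted by chance. The 47 genes differed by up to 4.94 on the log2 scale with a median of 1.60, and 21 of them by 4-fold or more. Of the 48, 26 were in 1 of the 8 lists of immediate early and related genes. Those lists held 84 genes, of which 71 were tested. Of the 71, 66 were higher in KD, where 48.6% of all genes tested were higher, and their median was 0.69 on the log2 scale. The lists and their members were picked after earlier results from these data had been seen. The 26 and the 66 are therefore no independent evidence.

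**Figure D2:**
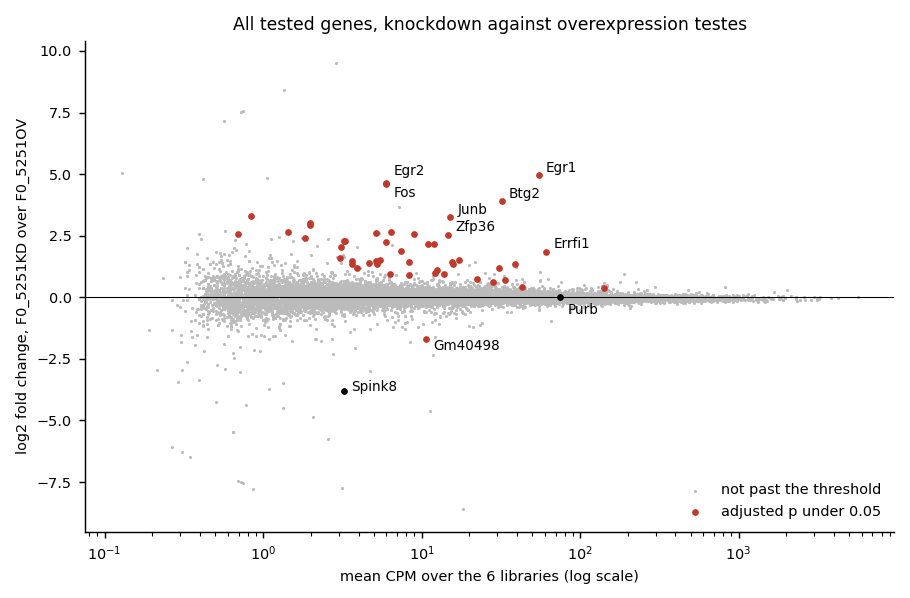
Each point is a gene: mean CPM over the 6 libraries (log scale) against the log2 fold change, KD over OV, with the 48 genes at an adjusted p under 0.05 in red. The red points lie above 0 except Gm40498, at −1.71, while Purb lies on the line and Spink8, the epididymal gene, at −3.80 without passing the threshold.

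Among genes past the test, Egr1 and Egr2 had the highest fold changes. Here and below, a gene that rose was higher in KD than in OV, which does not say how KD stood against F0_3NC. Egr1, a zinc finger activator induced by growth signals, stood at 115, 92.3 and 111 CPM in KD and at 3.64, 3.52 and 3.17 CPM in OV. Every KD library was thus far above every OV library, by a log2 fold change of 4.94 ± 0.17 (adjusted p = 4.02e-09). Egr2, a close relative needed for myelination elsewhere in the body, was measured at 10.2, 9.66 and 14.6 CPM in KD and 0.689, 0.196 and 0.452 CPM in OV (log2 fold change 4.65 ± 0.35, adjusted p = 7.56e-06). Nr4a3, an orphan nuclear receptor, rose as well, from 1.44, 2.09 and 2.65 CPM in OV to 11.5, 9.01 and 9.07 CPM in KD. Nr4a2 rose by 2.42 on the log2 scale (adjusted p = 0.00825) and Nr4a3 by 2.26 (adjusted p = 0.000128). Egr3 (0.19), Egr4 (0.70) and Nr4a1 (0.69) were the members of the list that did not pass the test. All 7 were higher in KD and 4 passed.

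With 7 members past the test, AP-1 genes formed the largest group. Fos, the founding AP-1 subunit, was at 9.09, 12.7 and 12.6 CPM in KD and at 0.313, 0.457 and 0.646 CPM in OV, a 24.0-fold difference (log2 fold change 4.58 ± 0.30, adjusted p = 2e-06). Junb, which pairs with Fos proteins, was at 29.0, 22.5 and 31.1 CPM in KD and 2.32, 3.13 and 3.23 CPM in OV (3.25 ± 0.24, adjusted p = 7.56e-06). Neither gene showed any overlap between the groups. The stress-induced Atf3 rose by 3.01, the small Maf protein Maff by 2.30, Fosl2 by 2.17, Fosb by 1.86 and Jun by 1.11 on the log2 scale. Jund, at 49.5 to 68.2 CPM in KD and 32.7 to 52.7 CPM in OV (log2 fold change 0.36), and Fosl1 (0.12) did not pass. All 9 members tested were higher in KD, 7 passed, and the median log2 fold change was 2.17.

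Other early transcription factors changed more unevenly. Myc, a driver of growth and ribosome production, was at 3.05, 2.33 and 2.04 CPM in KD and 0.376, 0.392 and 0.388 CPM in OV (log2 fold change 2.66 ± 0.29). Ier2, Ier3 and Klf6 rose by 2.58, 2.62 and 1.44 on the log2 scale. Srf (0.24), Csrnp1 (0.23), Klf4 (0.10) and Ier5 (0.08) did not pass the test, and 4 of 11 members passed in all.

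Some genes that end the early response rose in KD too. Btg2, an antiproliferative protein that recruits the CCR4-NOT deadenylase, was at 56.9, 50.9 and 72.0 CPM in KD and 3.32, 3.72 and 5.04 CPM in OV, a log2 fold change of 3.89 ± 0.18 (adjusted p = 6.82e-08). Zfp36 (tristetraprolin), which binds AU-rich elements and sends cytokine mRNA to decay, was at 24.7, 22.8 and 28.1 CPM against 3.89, 4.50 and 4.52 CPM (2.55 ± 0.13, adjusted p = 2.29e-07). Its relative Zfp36l1 rose by only 0.71. Among the mRNA decay regulators 6 of 8 were higher in KD and 3 passed, while Btg1 (−0.07) and Btg3 (−0.15) were lower and did not pass. Of 13 feedback inhibitors of the MAP kinase pathway, Dusp1, a phosphatase of p38 and JNK, rose by 1.52 ± 0.13 and Errfi1, an inhibitor of the EGF receptor, by 1.84 ± 0.10. Errfi1 was measured at 101, 85.5 and 100.1 CPM in KD and at 25.2, 27.1 and 27.4 CPM in OV. The other 11 did not pass, with Dusp4 (−0.10) the lowest. Plk3, a stress-responsive kinase outside the lists, rose by 2.93.

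Secreted products followed. Cyr61, a matricellular protein that binds integrins, was at 9.15, 10.6 and 13.6 CPM in KD and 1.32, 1.57 and 2.46 CPM in OV (log2 fold change 2.64 ± 0.33, adjusted p = 0.00153). Thrombospondin Thbs1 rose by 1.46, and 3 of 8 in that list passed. Ctgf, the relative of Cyr61, had a log2 fold change of 0.31 (adjusted p = 0.817). The monocyte chemokines Ccl7 and Ccl2 rose by 3.29 ± 0.51 and 2.59 ± 0.49 at low levels, with 3 and 4 estimated counts at most in an OV library. Ccl2 passed in only 7 of 21 alternative fits. Cxcl12 (−0.16) and Ccl12 (−0.53) did not pass, and 7 of the 15 chemokine and cytokine genes, Il6 and Tnf among them, were too low to be tested. Socs3, the feedback inhibitor of cytokine receptors, was at 6.74, 5.90 and 3.83 CPM in KD and 1.13, 1.11 and 1.10 CPM in OV (log2 fold change 2.29 ± 0.30), the only one of 7 NF-kB feedback genes to pass.

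**Figure D3:**
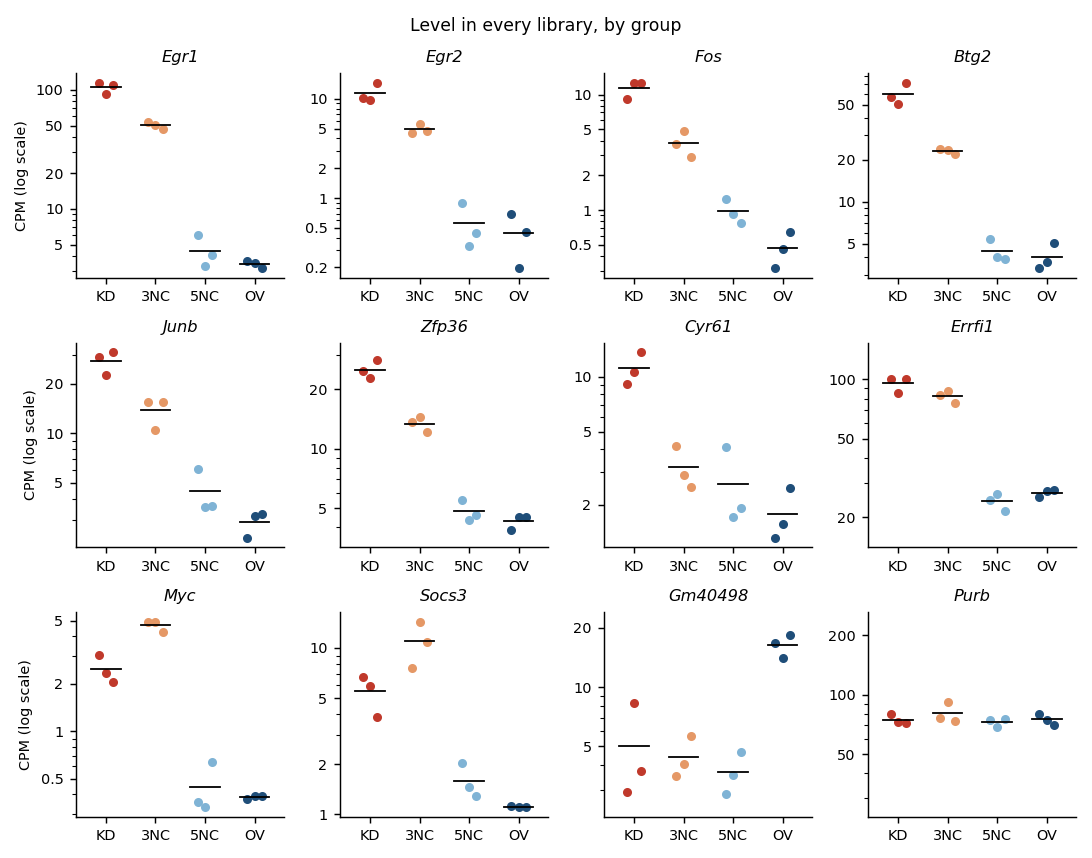
CPM (log scale) of 12 genes in every library of the 4 groups, ordered KD, F0_3NC, F0_5NC, OV, with a bar at each group mean. Egr1 lies at 92.3 to 115 CPM in KD and 3.17 to 3.64 CPM in OV with the controls of each backbone on the same side, whereas Purb lies at a similar level in all groups.

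Promoter sequences of 4 of these genes are shown because the genes moved together and letters bound by factors of the early response can be read in them. Windows of 250 bases before to 50 bases after a transcription start (RefSeq, GRCm38.p6) were found for 32 of the 47 genes, and the capitals mark the motif named for each gene. In Fos they mark the core TGACG of the cAMP response element, in Btg2 the full element TGACGTCA, which contains that core, in Zfp36 the EGR site GCGGGGGCG and in Egr2 the CArG box of the serum response factor, in 1 of its overlapping windows.
Fos, chr12:85473640-85473939, plus strand: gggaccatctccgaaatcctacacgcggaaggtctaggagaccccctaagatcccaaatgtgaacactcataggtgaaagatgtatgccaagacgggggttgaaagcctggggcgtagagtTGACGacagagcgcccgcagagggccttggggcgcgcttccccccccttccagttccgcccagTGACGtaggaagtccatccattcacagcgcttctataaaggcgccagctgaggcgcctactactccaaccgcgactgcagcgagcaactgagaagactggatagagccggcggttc
Btg2, chr1:134079106-134079405, minus strand: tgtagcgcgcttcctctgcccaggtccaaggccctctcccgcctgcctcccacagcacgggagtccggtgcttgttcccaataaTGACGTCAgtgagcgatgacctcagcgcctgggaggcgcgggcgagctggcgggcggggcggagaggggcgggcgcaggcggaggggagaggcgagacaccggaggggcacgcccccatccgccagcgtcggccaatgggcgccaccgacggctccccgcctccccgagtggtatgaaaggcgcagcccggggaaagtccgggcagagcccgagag
Zfp36, chr7:28379179-28379478, minus strand: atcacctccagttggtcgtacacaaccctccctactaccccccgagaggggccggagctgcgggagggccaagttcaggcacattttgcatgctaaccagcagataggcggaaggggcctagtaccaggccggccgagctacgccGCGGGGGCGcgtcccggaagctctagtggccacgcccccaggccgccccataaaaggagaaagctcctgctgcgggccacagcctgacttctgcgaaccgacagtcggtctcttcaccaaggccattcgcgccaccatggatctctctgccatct
Egr2, chr10:67537316-67537615, plus strand: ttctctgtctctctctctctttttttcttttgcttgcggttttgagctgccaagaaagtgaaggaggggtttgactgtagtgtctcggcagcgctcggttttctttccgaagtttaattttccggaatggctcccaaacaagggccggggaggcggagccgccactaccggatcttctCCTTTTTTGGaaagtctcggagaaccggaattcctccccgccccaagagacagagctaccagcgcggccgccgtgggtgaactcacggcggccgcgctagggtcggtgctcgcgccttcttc
The core was in the windows of 18 of the 32 genes (56.2%), beside 31.1% of the 12893 tested genes with a window. Among the 18 were Fos, Fosb, Junb, Atf3, Nr4a2, Nr4a3 and Dusp1. By window it was in 21 of their 40 (52.5%), beside 20.8% of all 32851 windows, those of untested genes included. The full element was in 4 of the 32 (12.5%, Btg2, Dusp1, Errfi1 and Maff), beside 3.16% of tested genes. By window the shares were 10% and 1.79%. The EGR site was in Fosb, Fosl2, Socs3 and Zfp36 (12.5% of genes beside 5.62%, 10% of windows beside 2.91%). The CArG box was in Egr2 and Zfp36 (6.25% of genes beside 1.59%, 12.5% of windows beside 1.63%). The AP-1 site TGANTCA was in F3 and Zfp36l1 (6.25% of genes beside 6.66%, 5% of windows beside 7.81%). These are counts of letters in short windows, on both strands, and do not show that a factor was bound.

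Many of these genes also separated the 2 vector controls. F0_3NC against F0_5NC gave 54 genes past the threshold (0.331%), 45 of them higher in F0_3NC (0.276%). Of the 48 genes past it between KD and OV, 29 also passed there, all with the same sign, which was 60.4% of the first list and 53.7% of the second. Of the 47 genes higher in KD, 45 were higher in F0_3NC than in F0_5NC, with a median log2 fold change of 1.32 beside 1.60 between KD and OV. In F0_3NC Egr1 averaged 50.7 ± 3.58 CPM, whereas F0_5NC averaged 4.46 ± 1.38 CPM (SD, n = 3), a log2 fold change of 3.49. Errfi1 differed by nearly the same amount in both comparisons, 1.84 between KD and OV and 1.78 between the controls. For 38 of the 47 genes all 6 libraries with the LV3 backbone were above all 6 with the LV5 backbone, which held for 96 of all genes tested (0.589%). The genes were chosen by the difference between the KD and OV libraries of that separation. The control libraries entered that choice only through the filter, the scaling and the estimate of the spread. Across all 16296 genes the log2 fold changes of the 2 comparisons had a Pearson correlation of 0.27 and a Spearman correlation of −0.16, and Pearson's r was 0.22 over the 16203 genes outside the early lists and the 48. The points of these correlations are genes measured in the same libraries and are not independent.

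**Figure D4:**
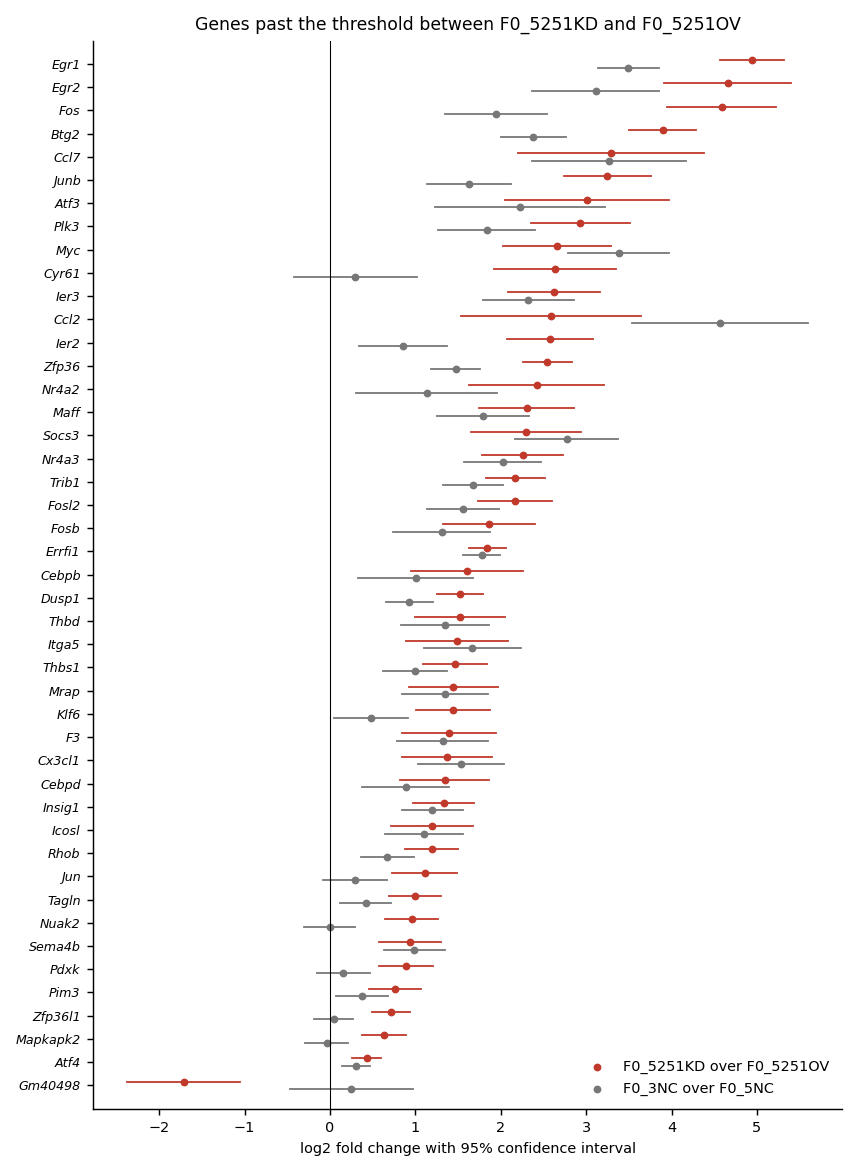
Log2 fold change with 95% confidence interval for genes past the threshold between KD and OV (red), beside F0_3NC over F0_5NC (grey). Most grey points lie to the right of 0 and left of the red ones, as for Egr1 at 3.49 and 4.94, while for Cyr61, Nuak2 and Zfp36l1 the grey interval includes 0.

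An interaction term asked whether KD and OV differed by more than their vector controls did. In edgeR 0 genes (0%) passed the threshold, with a smallest adjusted p of 0.105 and with 1842 genes (11.3%) at an unadjusted p under 0.05. With DESeq2 34 genes passed. Of the 47 genes, 40 had a larger log2 fold change between KD and OV than between the controls, and the median difference was 0.55. An unadjusted p under 0.05 was reached by 23 of them, although the KD and OV libraries that chose the genes also enter this difference. Fos showed one of the strongest differences: its log2 fold change was 4.58 between KD and OV and 1.94 between the controls, a difference of 2.64 with a 95% confidence interval of 1.72 to 3.56 (adjusted p = 0.151). Cyr61 averaged 3.21 ± 0.875 CPM in the LV3 control and 2.59 ± 1.34 CPM in the LV5 control (SD, n = 3), a log2 fold change of 0.30 beside 2.64 between KD and OV. Ier2 (2.58 against 0.85) and Klf6 (1.44 against 0.48) were likewise larger between KD and OV.

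Some genes went the other way. Myc, Ccl2 and Socs3 were among 7 genes whose log2 fold change was larger between the controls. Socs3 averaged 11 ± 3.44 CPM in F0_3NC, above all KD libraries, and Ccl2 differed by 4.57 between the controls against 2.59 between KD and OV. The lowest p of the difference belonged to Plin1, a coat protein of fat droplets, at 2.29, 2.01 and 2.30 CPM in KD and 1.13, 1.24 and 0.905 CPM in OV. Its order was turned round in the controls, where F0_3NC averaged 0.831 and F0_5NC 2.29 CPM (difference 2.46, adjusted p = 0.105). On the negative side the lowest p values were those of 9130204L05Rik (−1.09) and Ube2dnl1 (−0.82), a testis ubiquitin-conjugating enzyme gene, both at an adjusted p of 0.196.

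Each treatment was also set beside its own control, with shared libraries, so only values are given. Over the 47 genes the median log2 fold change was 0.26 for KD over F0_3NC (35 higher) and −0.31 for OV over F0_5NC (38 lower), beside −0.0045 and −0.0020 over all genes. In 25 of the 47 the group means ran in the order OV, F0_5NC, F0_3NC, KD. The 47 genes were chosen as higher in KD than in OV, which favours these directions and this order. The full set of genes was not chosen that way, so its medians are no like contrast. Egr1 was 1.07 higher in KD than in F0_3NC and −0.38 in OV against F0_5NC, and Fos 1.58 and −1.06. Nuak2 and Mapkapk2, kinases named here after their values were seen, differed by −0.79 and −0.60 between OV and F0_5NC but by 0.17 and 0.07 between KD and F0_3NC.

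Only Gm40498, a predicted gene, was lower in KD. It was at 2.92, 8.30 and 3.77 CPM in KD and at 16.8, 14 and 18.3 CPM in OV (log2 fold change −1.71 ± 0.31, adjusted p = 0.0353). Both controls were at the KD level, with 4.41 ± 1.08 CPM for LV3 and 3.70 ± 0.904 CPM for LV5 (SD, n = 3), so the OV libraries stood apart from all others. It passed in 14 of 21 alternative fits, and not without KD library 1 or 3 or without any 1 of the OV libraries. The next genes by p did not pass in edgeR: Spink8 (−3.80, adjusted p = 0.051), Gm43828 (−0.93), Hsbp1l1 (−0.67) and Cd55, a complement regulator (−0.41). All of these passed with DESeq2. Spink8 is on the epididymal list and was at 7.46, 8.81 and 1.94 CPM in OV.

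Genes of cholesterol synthesis and uptake were the other group with several members past the test. Insig1, the sterol sensor that holds SREBP in the endoplasmic reticulum, was at 65.5, 51.3 and 50.2 CPM in KD against 25.9, 23.5 and 16.7 CPM in OV (log2 fold change 1.33 ± 0.17, adjusted p = 0.00142). The groups did not overlap. Of 18 members tested, 17 were higher in KD, 3 passed, and the median was 0.37 beside 0.35 between the vector controls. Fdft1 was the lowest member at −0.10.

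Germ cell genes showed little difference. None of the 15 spermatogonial, 19 spermatocyte, 14 round spermatid and 13 elongated spermatid genes passed the test, and their medians were 0.00093, −0.030, −0.033 and −0.047 on the log2 scale. The lowest spermatocyte gene was Sycp1, of the synaptonemal complex, at −0.28, and the highest Spo11, which makes meiotic breaks, at 0.27. Among junction genes that the study followed, 0 of 10 passed, with a median of 0.13. Tjp1 was at 114 to 138 CPM in KD and 122 to 128 CPM in OV, and Ocln differed by 0.17. The study's genes of spermatogenesis gave 0 of 8, with Cyp11a1 the highest at 0.95 and Gdnf the lowest at −0.35. These 2 lists came from the study and are no independent evidence. The study followed such genes mainly as protein against controls, in testes of injected males, in their offspring and in a spermatogonial cell line. It reported less DDX4, CADM2 and CX43 protein in OV testes of injected males than in controls. In KD testes of injected males it reported more PGK2, CYP11A1 and BCL-XL protein than in controls. The values here are RNA, KD against OV, and so are not the same measure. Ddx4, the germ cell RNA helicase, was at 583 to 636 CPM in KD and 587 to 711 CPM in OV.

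Most somatic genes had small positive log2 fold changes between KD and OV, where 48.6% of all genes tested were higher in KD. The list medians between the vector controls, given below, ran the other way. Of 20 Sertoli genes 17 were higher, with a median of 0.11, and none passed, whereas 1 of 20 was higher in F0_3NC than in F0_5NC (median −0.23). All 12 Leydig genes were higher, with a median of 0.33 and none past the test, and Cyp11a1, which starts steroid synthesis by cleaving the cholesterol side chain, came closest at 0.95 (adjusted p = 0.0901). That median fell to 0.13 without KD library 1, the library with the highest Leydig sum (3409 CPM against 1693 to 2590 CPM in the others). Of 12 smooth muscle genes 11 were higher and Tagln, an actin-binding protein that serum response factor controls, rose by 1.0 ± 0.14 (adjusted p = 0.00455). Unlike its list median, Tagln was also higher in F0_3NC than in F0_5NC, by 0.42 (adjusted p = 0.309). Endothelial genes (12 of 13 higher, median 0.23), matrix genes (12 of 14, median 0.16) and macrophage genes (8 of 13, median 0.16) held none past the test. Between the vector controls the medians were −0.08 for Leydig, −0.19 for smooth muscle, −0.16 for endothelial (1 of 13 higher), −0.12 for matrix and −0.29 for macrophage genes. In bulk tissue a change in the number of cells of a type cannot be told apart from a change in RNA per cell.

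Other stress programmes held no gene past the test. Interferon response genes split 11 to 11 with a median of −0.014 and none of 22 passed. Heat shock genes had a median of 0.091 (8 of 12 higher in KD, 0 passed) and glucocorticoid response genes 0.20 (8 of 9 higher, 0 passed). Hypoxia genes had a median of 0.072 (4 of 7 higher, 0 passed) and clock genes 0.035 (10 of 14 higher, 0 passed). Per1, on both the clock and the glucocorticoid list, differed by 0.20. MHC class II genes gave 0 of 7, lymphocyte genes 0 of 5, neutrophil genes 0 of 2 and skeletal muscle genes 0 of 4. Il1b and Cd14 were higher in every KD library than in any OV library, by 1.01 and 1.70, without passing (adjusted p = 0.15 and 0.196).

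**Figure D5:**
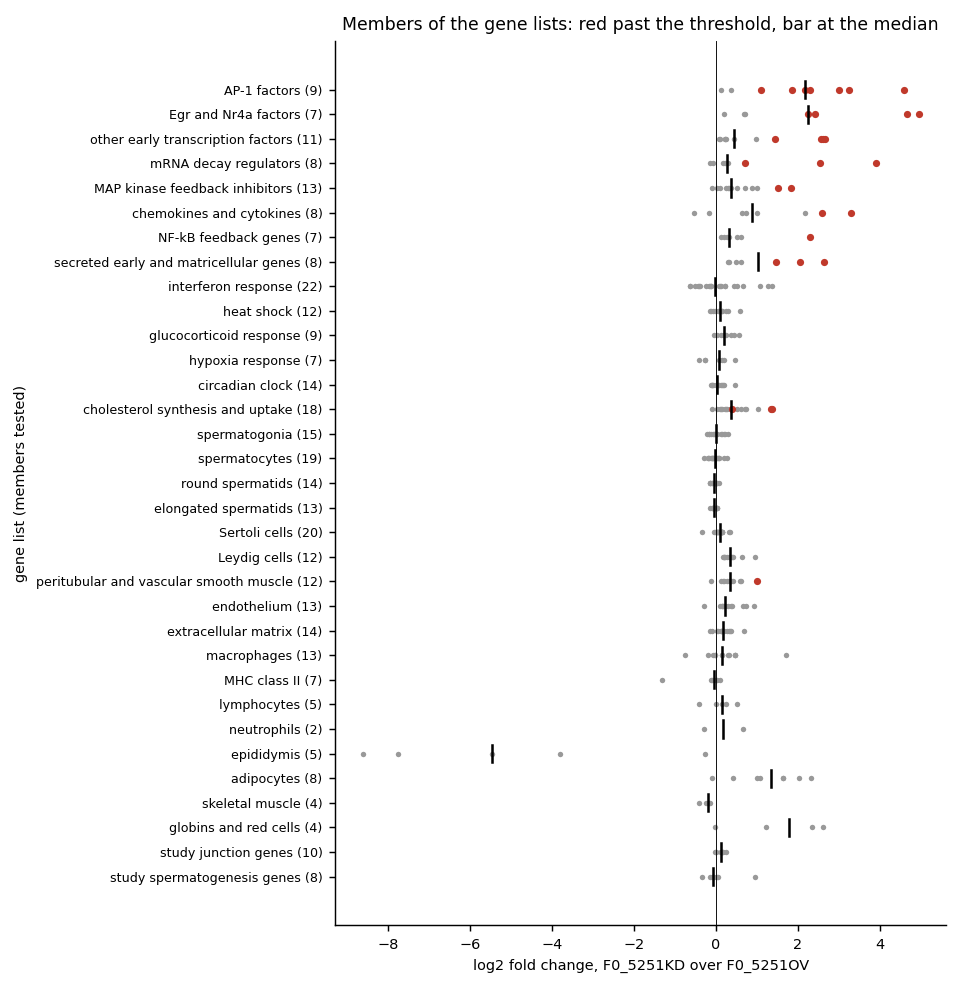
Log2 fold change, KD over OV, of each tested member of 33 gene lists, with red points past the threshold and a black bar at the median. Red points lie in the 8 early lists at the top, in the cholesterol list and at Tagln, and the germ cell medians lie within 0.05 of 0. The epididymal list has a median of −5.46 with no member past the threshold in edgeR.

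Transcripts of neighbouring tissue moved with the groups, and their part in the early gene result was not tested. Crisp1, a secreted epididymal protein, was at 63.6, 45.2 and 0.194 CPM in OV and at 0.127, 0.0648 and 0.0639 CPM in KD. In edgeR 5 of 5 tested epididymal genes were lower in KD, none past the threshold. With DESeq2, Crisp1, Spink8 and Adam7 passed (adjusted p = 4.3e-05, 0.00033 and 0.014). Spink8 also passed between the vector controls in edgeR, at −3.79 (adjusted p = 0.0235). The adipocyte list had a median of 1.36, which became 0.65 without KD library 1, and the globin and red cell list a median of 1.79, with reads that near-identical globin genes may share. Neither list had a member past the test. Without KD library 1 or without OV library 1, 29 of the 48 genes passed, and without OV library 2, 31 of them passed.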

How the data were processed

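Testis RNA was sequenced in 12 libraries (4 groups of 3). The authors' table, built on mm10, gives estimated counts per gene and FPKM for each library; the deposited estimated counts (12% not whole) were rounded, and the deposited FPKM served only the limma alternatives. Columns of other groups (18 per-sample columns) were left out, as were the authors' group averages. The methods name SOAPaligner for mapping.

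Genes were filtered with filterByExpr (16296 kept), scaled by TMM and fitted in 1 edgeR 4.0.16 quasi-likelihood model over all 12 libraries (8 residual degrees of freedom), with Benjamini-Hochberg adjustment over all genes. CPM uses library totals multiplied by their TMM factors. Alternatives were DESeq2 1.42.0, limma 3.58.1, other filters and scaling, a replicate block, leaving out libraries, and a test of summed counts (adjusted p of 0.001 and a log2 ratio of 1). Named genes are the 12 largest changes per direction (mean of 1 CPM or more, no overlap), list members past the threshold, list extremes, Purb and the lowest p of the difference of effects; others were chosen after their values were seen. Some genes under this rule are not reported here. Members and gene lists were chosen with earlier results of these data known. Code was tested on simulated data. Symbols were matched to RefSeq for 20564 genes.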

Additional observations from a re-analysis of the deposited data

How the results depend on the processing

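Between KD and OV, the 48 genes became 101 with DESeq2 (85 higher, 16 lower, the 48 among them), 31 at a threshold of 0.01, 231 in a test on pooled counts, 19 with OV library 3 alone (chosen after seeing the data, and assuming that this library varies like the other groups) and 29 to 51 when 1 library was left out. F0_3NC against F0_5NC gave 54 genes, 131 with DESeq2, 28 at 0.01, 307 with pooled counts and 30 to 68 with 1 library left out (30 without F0_5NC library 3, 35 without F0_3NC library 2). The difference of effects gave 0 genes, 34 with DESeq2, 1 with limma on log2(FPKM + 1) and 0 to 1 with 1 library left out. The cause of these differences was not tested.

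Over the 48 genes and 21 alternatives, 800 of 1008 tests passed the threshold. Limma on log2(FPKM + 1), which understates changes of low genes, gave smaller values: 2.46 for Fos, 2.21 for Egr2, 0.65 for Nr4a2, 0.84 for Myc and a median of 1.25 for AP-1 genes. In every alternative 16 genes passed, and in every fit without 1 library 25. Purb, near 0, changed sign: 0.0045 with upper-quartile scaling, 0.0020 without a filter, 0.0036 with a minimum of 1 CPM, 0.020 and 0.022 with limma, 0.0037 with only the compared libraries, 0.11 with OV library 3 alone and −0.054 to 0.046 with 1 library left out. Replicate numbers did not pair the samples (correlations of deviations −0.023, −0.030 and −0.016), and a replicate block gave 40 genes between KD and OV, 39 of them shared, 50 between the controls and 0 for the difference.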
